A study of Mus musculus with 4 samples.

Results

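The genes described here encode adaptor proteins of the cartilage matrix: the matrilins Matn1, Matn2, Matn3 and Matn4, cartilage oligomeric matrix protein (Comp), the thrombospondins Thbs1, Thbs2, Thbs3 and Thbs4, and chondroadherin (Chad). Each of these 10 genes, of 19938 genes measured, was found by its symbol in the platform annotation and had exactly 1 probe set on the array. No probe set annotated to several genes carried any of their symbols. The cells were ATDC5, mouse chondroprogenitor cells of an established line that lay down a cartilage-like matrix. In the day 15 group, insulin, transferrin and selenite had been added to the basal medium for 15 days, and the day 0 group was kept undifferentiated in the basal medium alone. All cells had serum, glutamine, antibiotics and ascorbic acid in the medium. Each group had 2 samples, and total RNA of each sample was measured on 1 whole-transcript array. No group was held for 15 days without the supplement, so time in culture, the supplement and differentiation cannot be told apart. All samples come from a single cell line, and the labels do not say whether samples of a day came from separate cultures. The p-values therefore measure the spread between these samples only, which may be technical.

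Adaptor proteins link the main components of the cartilage matrix. Most of them have several arms, and as a group they bridge collagen fibrils, aggrecan and cell surface receptors. Matrilins join through a coiled coil into bundles whose von Willebrand factor A domains hold collagens and proteoglycans. Thrombospondins and COMP are calcium-binding proteins that assemble through a coiled coil into trimers or pentamers. Chondroadherin is a leucine-rich repeat protein that binds collagen and integrins. Mutations in human MATN3 and COMP cause skeletal dysplasias in which chondrocytes retain matrix proteins inside the cell.

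Before the genes are described, the arrays can be placed in brief. Deposited intensities ran from 0.72 to 23103 on a linear scale, and the values below are log2(intensity + 1) after quantile normalization unless they are called deposited intensities. Of 8 chondrocyte markers 3 were called higher at day 15 (Hapln1, Acan and Col2a1), beside 1.3% of all genes. The same 3 genes are counted again among the matrix partners below. Not called were Col9a1 (1.10 log2), Sox9 (0.47), Col9a2 (0.28), Col11a2 (0.27) and Cnmd (−0.11). The summed level of the 8 was 14.15 and 14.64 on the day 15 arrays, against 12.89 and 12.73 on the day 0 arrays. Linear values were summed, so the brightest genes weigh most. The 6 muscle, 5 endothelial and 4 measured adipocyte markers had no gene called by limma, beside 1.72% of all genes. They had 0 with an unadjusted p below 0.05, beside 12.2% of all genes. Of them 0, 0 and 1 lay at or above the median level of the genes tested, so a change in such dim genes could go unseen. Of 6 macrophage markers 4 (Csf1r, C1qa, C1qb and Cd68) were higher in replicate 1 than in replicate 2 on both days, and Ptprc and Adgre1 were lower. The summed level of the 6 genes was 12.53 on day 15 replicate 1 and 10.44 on day 15 replicate 2, against 12.49 on day 0 replicate 1 and 10.16 on day 0 replicate 2. Csf1r, the receptor that defines the lineage, was at 10.19 and 6.49 on the day 15 arrays, against 10.31 and 6.71 on the day 0 arrays. In RNA of whole cultures, fewer cells of a type and less RNA per cell cannot be told apart.

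Of the 10 adaptor genes, Matn1 alone passed the test over all genes, with a 7.12-fold higher intensity at day 15. A gene was called when its limma p-value, adjusted over all 19938 genes by the Benjamini-Hochberg method, was below 0.05. By this rule 1.72% of all genes were called in either direction, and 1.3% were called higher. No adaptor gene was called lower, where 0.411% of all genes were. Matn2 and Comp came next, at 2.12-fold and 1.79-fold, and did not pass. The differences of the other 7 genes lay between −0.28 and 0.50 log2. The median difference of the 10 genes was 0.15 log2, beside 0.018 log2 for all genes, and the median size of the difference was 0.23 log2, beside 0.16 log2 for all genes. Both day 15 arrays lay above both day 0 arrays for 5 of the 10 (Matn1, Matn2, Matn4, Comp and Thbs4), as they did for 22.3% of all genes. They lay below both day 0 arrays for 1, Thbs1, as they did for 17.8% of all genes. The groups thus did not overlap for 6 of the 10, beside 40.1% of all genes.

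**Figure D1:**
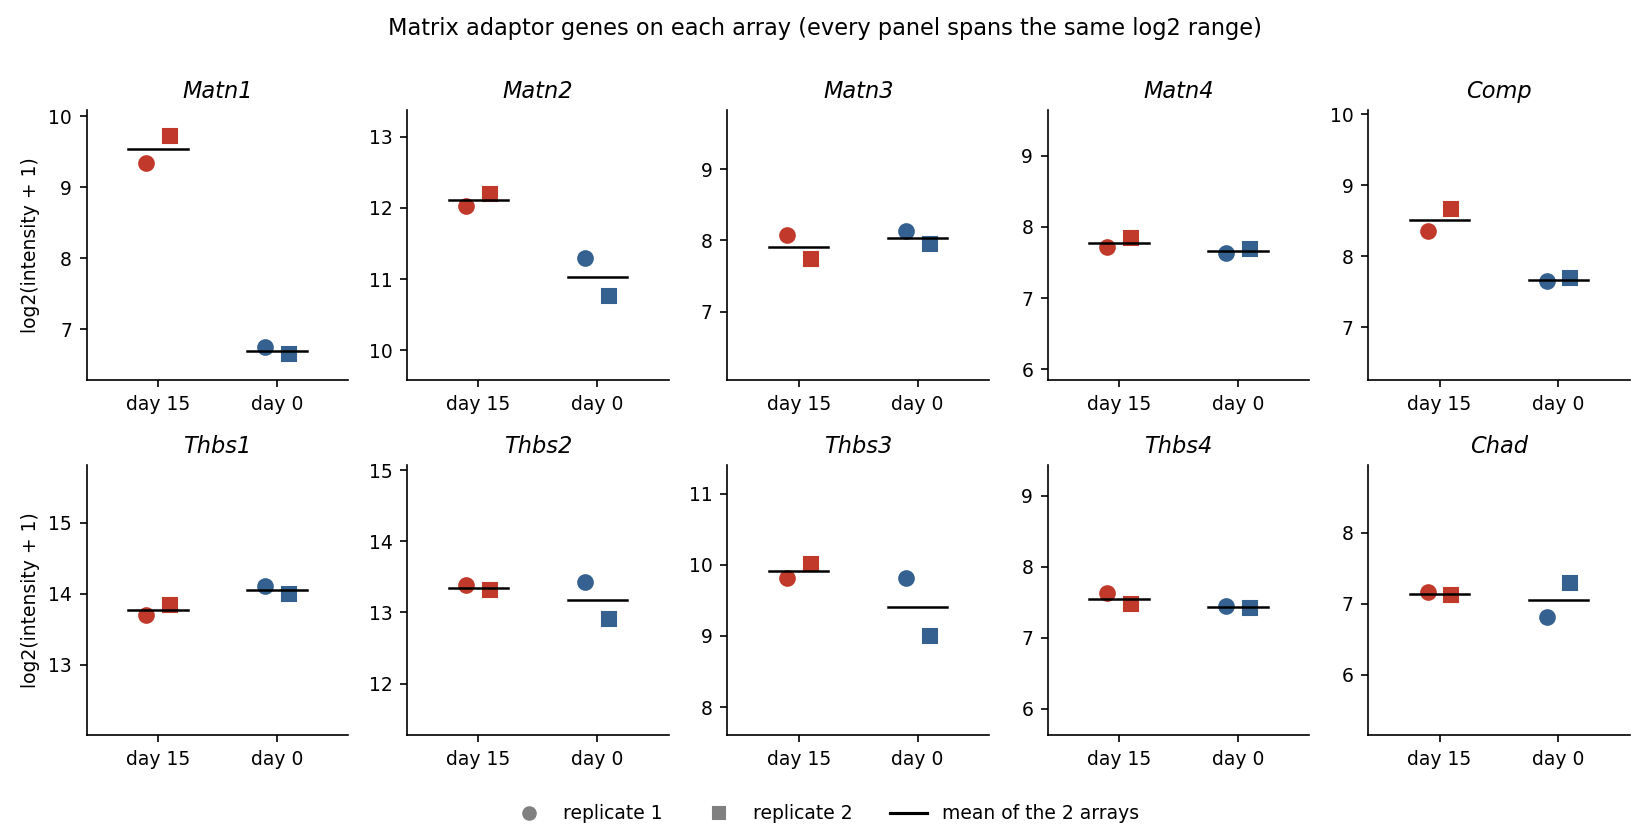
The log2(intensity + 1) of each adaptor gene on the 2 day 15 arrays (red) and the 2 day 0 arrays (blue), with circles for replicate 1, squares for replicate 2, a line at the mean, and the same log2 span in every panel. Matn1 stands at 9.35 and 9.71 at day 15, against 6.75 and 6.65 at day 0, while the groups of Matn3, Thbs2, Thbs3 and Chad overlap.

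Matn1 encodes matrilin-1, the matrilin first isolated from cartilage, which decorates type II collagen fibrils and aggrecan. Its probe set, 10508676, had deposited intensities of 653 and 868 on the day 15 arrays, against 105.03 and 105.23 on the day 0 arrays. After normalization these were 9.35 and 9.71 at day 15, against 6.75 and 6.65 at day 0. The groups were far apart: the difference was 7.71 times the larger gap between 2 arrays of the same day. Matn1 rose by 2.83 ± 0.19 log2 (SE; limma adjusted p = 0.00433), with a 95% interval of 2.35 to 3.31. This placed it at rank 40 of all genes by p-value and at rank 72 by size of increase. Its day 0 level lay below 7.95, the median of all probe sets. No detection call was used, so the day 0 value may be background light and the fold on this scale may understate the change. The call held in each alternative that kept all arrays and tested Matn1 (limma adjusted p from 0.000794 to 0.00726). With 1 array left out the difference ran from 2.64 to 2.98 log2.

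Because Matn1 rose and Matn3, the other matrilin typical of cartilage, was not called, the 250 bases before the annotated start of each gene are shown, from RefSeq on GRCm38.p6. Matn1 is on the plus strand and its window is chr4:130944135-130944384. Matn3 is on the plus strand and its window is chr12:8947679-8947928. Capitals mark any match, on either strand, to the letters of motifs searched.
Matn1: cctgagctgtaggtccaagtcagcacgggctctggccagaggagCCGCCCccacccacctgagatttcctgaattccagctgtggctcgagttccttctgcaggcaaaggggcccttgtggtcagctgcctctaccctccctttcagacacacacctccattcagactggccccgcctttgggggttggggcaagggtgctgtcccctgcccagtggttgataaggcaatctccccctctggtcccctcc
Matn3: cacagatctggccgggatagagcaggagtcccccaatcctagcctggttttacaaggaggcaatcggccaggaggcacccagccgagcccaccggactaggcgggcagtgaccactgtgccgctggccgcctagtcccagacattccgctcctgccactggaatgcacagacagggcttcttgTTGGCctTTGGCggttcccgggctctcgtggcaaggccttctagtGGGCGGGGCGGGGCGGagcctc
The first letters searched were AACAAT, a core that SOX factors bind, and the second were ACAAAG, another such core. The others were TTGGC, the repeat unit of the nuclear factor I site, then TATAAA for the TATA box, then GGGCGG for the GC box and lastly TGANTCA for the AP-1 site. The Matn1 window held 1 match, a GC box in reverse orientation 206 to 201 bases before the start. The Matn3 window held 3 GC boxes that overlap each other, the nearest ending 7 bases before the start, and 2 nuclear factor I units. Among 32817 such windows of all genes, 32.7% held the GC box, 41.5% the nuclear factor I unit, 12.4% the TATA box and 6.75% the AP-1 site. The first SOX core was in 9.42% of them and the second in 16.5%. Bases G and C made up 62.0% of the Matn1 window and 65.2% of the Matn3 window, beside a median of 52.4% over all windows. The Matn1 window held 4 CpG and the Matn3 window 14, beside a median of 6. A match to letters is a description of the window and no evidence of binding.

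Matn2, matrilin-2, is found in many connective tissues outside cartilage, and its protein forms filaments around cells. Its deposited intensities were 4190.2 and 4713 at day 15, against 2500.25 and 1701 at day 0. On the log2 scale its levels were 12.02 and 12.19 at day 15, against 11.30 and 10.76 at day 0. Both day 15 arrays were above both day 0 arrays, but the day 0 arrays differed from each other by 0.54 log2. The difference of 1.08 ± 0.23 log2 (SE, 95% interval 0.51 to 1.65) did not pass over all genes (limma adjusted p = 0.118). It passed in no alternative that kept all arrays (limma adjusted p from 0.0592 to 0.787). Without day 0 replicate 1 it was 1.35 log2 and without day 0 replicate 2 it was 0.81 log2, a ratio of over 1.5 between them.

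Matn3, matrilin-3, is largely confined to cartilage in normal tissue and pairs with matrilin-1 in mixed oligomers. Its levels were 8.07 and 7.74 at day 15, against 8.13 and 7.94 at day 0. The groups overlapped, and the difference of −0.13 ± 0.19 log2 (SE) was smaller than the 0.33 between the day 15 arrays (limma adjusted p = 0.920). The 95% interval of this intensity difference, −0.61 to 0.35, does not include a change of the size of Matn1's. The difference between the genes was not itself tested. No detection call was used, so the interval does not bound a change hidden under background light. Matn4, matrilin-4, is expressed in many tissues including cartilage. It stood at 7.71 and 7.84 at day 15, against 7.64 and 7.70 at day 0. Its groups did not overlap, yet they were 0.11 ± 0.16 log2 (SE) apart (limma adjusted p = 0.925), less than the gap of 0.13 between the day 15 arrays. Matn3 on the replicate 2 array of each day and Matn4 on all 4 arrays lay below the median of all probe sets. Both genes lay below 8.72, the median level of the genes tested, on all 4 arrays. Whether the probe sets tell these related genes apart was not examined.

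Comp encodes cartilage oligomeric matrix protein, the pentameric thrombospondin of cartilage, tendon and ligament, which binds collagens II and IX and matrilins. Its deposited intensities were 316 and 440.49 at day 15, against 190.0 and 214 at day 0. The normalized levels were 8.36 and 8.66 at day 15, against 7.65 and 7.70 at day 0. The day 15 arrays were both higher, and the difference was 2.78 times the larger replicate gap. At 0.84 ± 0.18 log2 (SE, 95% interval 0.39 to 1.29) it did not pass over all genes (limma adjusted p = 0.125). Matn1, Matn2 and Comp were the 3 adaptor genes with an unadjusted p below 0.05, at 8.83e-06, 0.00362 and 0.00405, and 12.2% of all genes had such a p. The smallest difference called among all genes was 1.04 log2, so with 2 arrays a group a difference of the size of Comp's was never called. Both day 0 values of Comp lay below the median of all probe sets. Against 8.72, the median level of the genes tested, Comp was lower on every array.

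**Figure D2:**
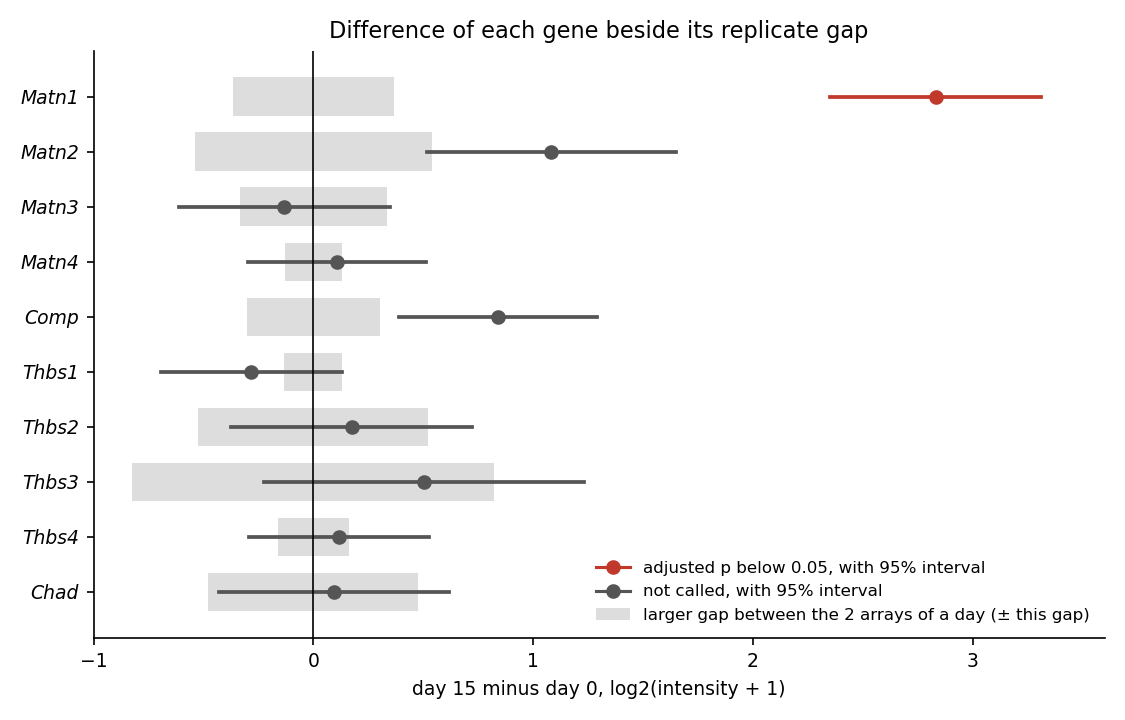
Day 15 minus day 0 for each adaptor gene in log2(intensity + 1), with points for the difference, lines for its 95% interval (limma) and grey bars that extend the larger gap between 2 arrays of a day to either side of 0. Matn1 (2.83) lies far outside its replicate gap of 0.37, Matn2 (1.08) and Comp (0.84) lie outside theirs without being called, and Thbs3 (0.50) lies inside a gap of 0.82.

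Thbs1, thrombospondin-1, is a trimeric protein that inhibits angiogenesis and can activate latent TGF-beta. It was bright on every array, with deposited intensities of 13020 and 14737 at day 15, against 16908 and 16971 at day 0. Its normalized levels were 13.71 and 13.84 at day 15, against 14.11 and 14.00 at day 0. Both day 15 arrays were below both day 0 arrays, and the difference was 2.14 times the larger replicate gap. The difference of −0.28 ± 0.17 log2 (SE, 95% interval −0.70 to 0.13) did not pass (limma adjusted p = 0.634). The deposited values carry no saturation flag, and compression of bright values was not tested. Thbs2, thrombospondin-2, is the other trimeric member and is tied to collagen fibril assembly. It stood at 13.38 and 13.31 at day 15, against 13.43 and 12.91 at day 0. Day 0 replicate 2 was the low array, and the groups overlapped. The difference was 0.18 ± 0.22 log2 (SE; limma adjusted p = 0.897), and −0.086 log2 without day 0 replicate 2.

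Thbs3, thrombospondin-3, is a pentameric member expressed in skeletal tissue, and mice that lack it show early changes of bone growth. Its levels were 9.81 and 10.01 at day 15, against 9.82 and 8.998 at day 0. The 2 day 0 arrays differed by 0.82 log2, the largest replicate gap among the 10 genes, and replicate 1 of day 0 was level with day 15. The difference was 0.50 ± 0.29 log2 (SE; limma adjusted p = 0.634). Without day 0 replicate 2 it was 0.090 log2, and without day 0 replicate 1 it was 0.89 log2, so it rests on which day 0 array is kept. Matn2, Thbs2 and Thbs3 were each higher in day 0 replicate 1 than in day 0 replicate 2, and Chad was lower there by 0.48 log2. Of the 6 macrophage markers 4 were higher in day 0 replicate 1, and Ptprc and Adgre1 were lower. At day 15 the same 4 markers were again higher in replicate 1, where Matn2 and Thbs3 were lower than in replicate 2 and Thbs2 was higher by 0.066 log2. Whether the marker differences and the day 0 gaps are linked was not tested, and the presence of macrophages was not examined.

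Thbs4, thrombospondin-4, is the pentameric member of tendon and muscle. It was dim, at 7.63 and 7.47 at day 15, against 7.45 and 7.43 at day 0. The groups did not overlap, but the difference of 0.12 ± 0.17 log2 (SE, 95% interval −0.29 to 0.53) was less than the gap of 0.16 between the day 15 arrays (limma adjusted p = 0.915). Chad, chondroadherin, had levels of 7.17 and 7.12 at day 15, against 6.81 and 7.29 at day 0. The day 15 arrays lay between the day 0 arrays, and the difference was 0.093 ± 0.21 log2 (SE; limma adjusted p = 0.961), which was −0.15 log2 without day 0 replicate 1. All 4 arrays were below the median of all probe sets for both genes, and no detection call was used.

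**Figure D3:**
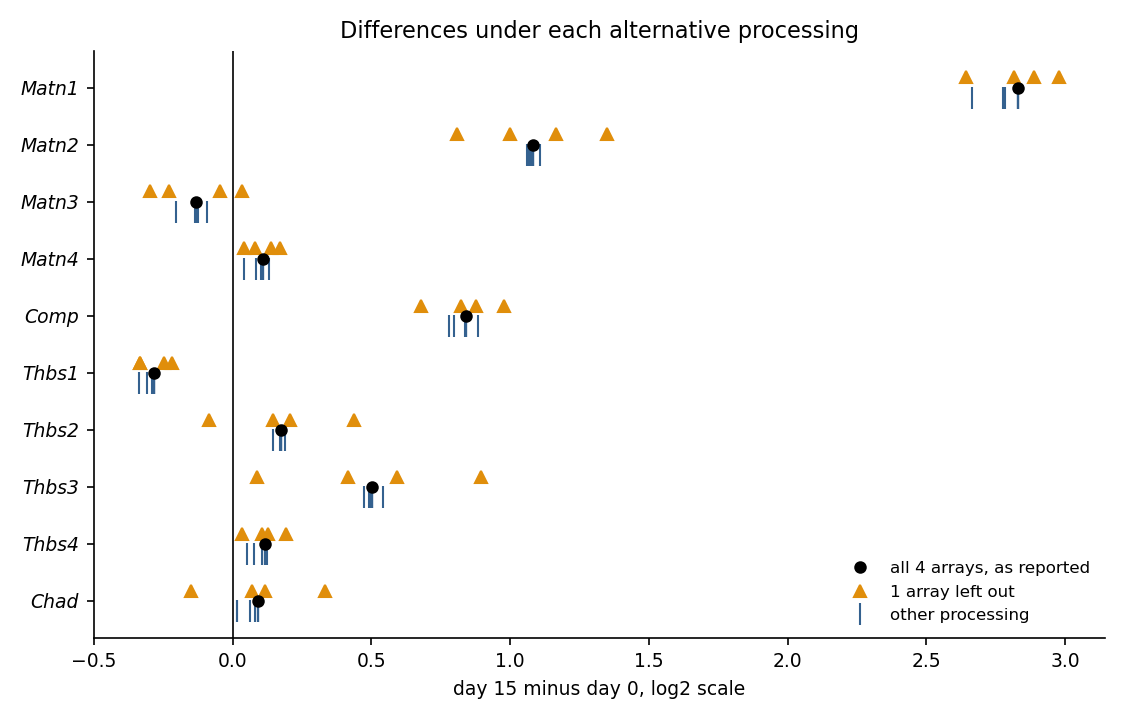
Day 15 minus day 0 in log2 for each adaptor gene with all 4 arrays (black circles), with 1 array left out (orange triangles) and with other processing (blue ticks). Matn1 stays between 2.64 and 2.98 and Comp between 0.68 and 0.98, while Matn3, Thbs2 and Chad cross 0 when 1 array is left out.

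Among the genes searched, those whose 4 array values most resembled those of Matn1 were Gng4, a G protein gamma subunit, and Il16, the cytokine interleukin-16. Likeness was the Euclidean distance between values centred on each gene's mean, over 4 arrays, among genes at or above the median level. Gng4 was at a distance of 0.19, with 10.30 and 10.71 at day 15, against 7.93 and 7.77 at day 0. Il16 was at a distance of 0.23, with 10.14 and 10.48 at day 15, against 7.75 and 7.66 at day 0. Like Matn1, both were higher in replicate 2 than in replicate 1 at day 15. With 4 arrays many genes share such a shape, so the likeness is a description only.

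The matrix partners of the adaptors, a list of 19 collagens, proteoglycans and fibronectin, held 4 called genes and 15 that were not called. All 4 were higher at day 15, where 1.3% of all genes were called higher. They were Hapln1, the link protein (6.14 log2), Acan, the aggrecan core protein (3.53), Col2a1, the chain of type II collagen (2.17), and Col11a1, a chain of the thin fibril collagen XI (1.56). The median of the list was 0.27 log2. Col11a1 stood at 11.47 and 11.95 at day 15, against 10.16 and 10.13 at day 0 (1.56 ± 0.21 log2, SE; limma adjusted p = 0.0325). Collagen IX, the partner to which both matrilin-3 and COMP bind, did not have a called chain. Col9a1 differed by 1.10 ± 0.20 log2 (SE; limma adjusted p = 0.0733), Col9a2 by 0.28 and Col9a3 by −0.055. The call of Col11a1 was lost without day 0 replicate 1 (limma adjusted p = 0.074), day 0 replicate 2 (0.0972) and day 15 replicate 2 (0.0776). Col2a1 was lost in the same 3 fits (0.0678, 0.105 and 0.0513), and 2 partners were called without day 15 replicate 2. Dcn, decorin, which binds collagen fibrils, was at 13.65 and 13.47 at day 15, against 8.10 and 11.27 at day 0. It was not called with all arrays (limma adjusted p = 0.164). Its difference was 2.29 log2 without day 0 replicate 1 and 5.47 log2 without day 0 replicate 2. A fit that leaves 1 array in a day holds no spread for that day, so no gain, loss or keeping of a call is read from it.

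**Figure D4:**
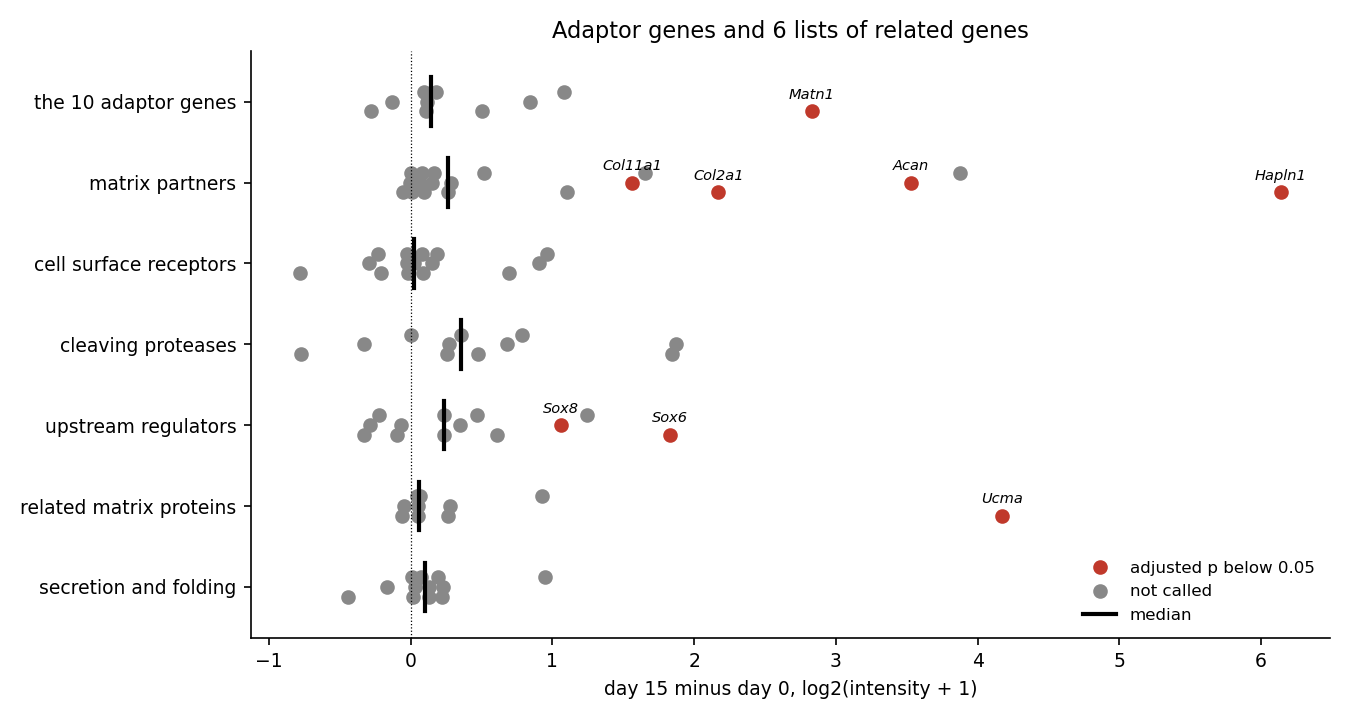
Day 15 minus day 0 in log2(intensity + 1) for the 10 adaptor genes and 6 lists of related genes, with 1 point per gene, red for an adjusted p below 0.05, grey for genes not called and a black line at the median. Called genes lie to the right of 0 among the adaptors, matrix partners, upstream regulators and related matrix proteins, and the receptor, protease and folding lists hold none.

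None of 15 cell surface receptors was called by limma, beside 1.72% of all genes. Of these receptors 3 had an unadjusted p below 0.05 (12.2% of all genes did), and their median was 0.024 log2. Their largest difference was that of Itga6, an integrin subunit, at 8.81 and 8.82 at day 15, against 8.25 and 7.45 at day 0 (0.96 ± 0.28 log2, SE; limma adjusted p = 0.240). Cd36, the thrombospondin receptor of endothelial cells and macrophages, was dim at 5.79 and 5.54 at day 15, against 5.76 and 5.63 at day 0. Cd47, the receptor for the C-terminal part of thrombospondin-1, was at 12.17 and 12.14 at day 15, against 12.31 and 11.96 at day 0. The calcium channel subunit Cacna2d1, which also binds thrombospondins, differed by 0.90 ± 0.18 log2 (SE) and was not called (limma adjusted p = 0.106).

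None of 11 proteases that cut matrix proteins was called by limma, beside 1.72% of all genes. Of these proteases 6 had an unadjusted p below 0.05 (12.2% of all genes did), with a median of 0.36 log2. Mmp13, collagenase-3, had the largest difference, at 9.29 and 7.61 at day 15, against 6.34 and 6.81 at day 0 (1.87 ± 0.54 log2, SE; limma adjusted p = 0.229). Without day 15 replicate 2 its difference was 2.71 log2, in a fit that holds no day 15 spread. Adamts4, an aggrecanase that can cleave COMP, differed by 1.84 ± 0.38 log2 (SE) and was not called with all arrays (limma adjusted p = 0.107). It passed in no alternative that kept all arrays. Without day 0 replicate 1 its difference was 2.39 log2, in a fit that holds no day 0 spread. Adamts5, the other aggrecanase of the list, differed the other way, by −0.78 ± 0.23 log2 (SE; limma adjusted p = 0.243). Adamts7 and Adamts12, metalloproteases known to bind and degrade COMP, differed by 0.36 and 0.27 log2 (limma adjusted p = 0.510 and 0.698). Of 12 genes of protein folding and secretion none was called by limma, again beside 1.72% of all genes. Only 1 (Ddit3) had an unadjusted p below 0.05, beside 12.2% of all genes, and their median was 0.10 log2. Ddit3, a transcription factor of the stress response to unfolded protein, had the largest difference there, 0.95 log2, at 10.76 and 10.66 at day 15, against 9.76 and 9.76 at day 0 (limma adjusted p = 0.0634). Hspa5, the chaperone BiP, differed by 0.010 log2.

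Among 13 upstream regulators 2 were called, both higher. Sox6, which acts with Sox5 and Sox9 on cartilage genes including Matn1, differed by 1.83 ± 0.29 log2 (SE; limma adjusted p = 0.0498), and Sox8, a relative of Sox9, by 1.06 ± 0.17 (0.0492). Sox5 and Sox9 themselves were not called, at 0.24 and 0.47 log2 (limma adjusted p = 0.952 and 0.533). Sox6 and Sox8 lay just under the threshold, and with the deposited scaling neither was called (limma adjusted p = 0.0502 and 0.056). With 1 array left out Sox6 differed by 1.47 to 2.20 log2 and Sox8 by 0.97 to 1.15 log2. Tgfb1, a growth factor that induces Comp and Thbs1 in other cells, was at 11.46 and 11.73 at day 15, against 10.75 and 9.96 at day 0, and was not called (limma adjusted p = 0.153). Without day 0 replicate 1 its difference was 1.63 log2, in a fit that holds no day 0 spread. Of 10 related matrix proteins, Ucma, a small protein of growth plate cartilage, was called at 4.17 ± 0.33 log2 (SE; limma adjusted p = 0.00621). The other 9, which include the chondroadherin-like Chadl and the von Willebrand factor A domain protein Vwa1, were not called, and these 2 differed by 0.053 and −0.059 log2. Over the 6 lists 7 of 80 genes were called higher and none lower by limma, beside 1.3% and 0.411% of all genes. These lists too were drawn up with earlier results of these data known, so the count is a description only.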

How the data were processed

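Biotin-labelled cDNA of total RNA from 4 ATDC5 samples was hybridised to 1-colour arrays, per the labels' protocols. The deposited values are linear intensities per probe set, judged from the values. The background correction, summarization and normalization used by the authors are not given in the labels or files used here. The submitters' processing notes name the build mm9.

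Of 35512 probe sets, 21789 had 1 gene symbol, 1621 several and 12102 none. Only the first were tested. Intensities were turned to log2 after adding 1 and quantile normalized over all probe sets, because array medians ranged from 7.87 to 8.06. The brightest probe set stood for a gene. Day 15 and day 0 (2 arrays each) were compared with limma 3.58.1 in R 4.3.3 (lmFit, eBayes, group as the only term), with Benjamini-Hochberg adjustment over 19938 genes. The number of arrays limits the precision. The test was checked on simulated data. There were 13 alternatives of scaling, filter, block, test and arrays left out. Figures used matplotlib 3.10.9 in Python 3.11.15.

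The 10 genes, the gene lists and the tests were chosen with earlier results of these data known. All 10 genes are named. From each of the 6 lists of related genes the called genes were named by rule, or the gene with the largest difference where none was called. Col9a1, Col9a2, Col9a3, Dcn, Cd36, Cd47, Cacna2d1, Adamts4, Adamts5, Adamts7, Adamts12, Hspa5, Sox5, Sox9, Tgfb1, Chadl, Vwa1, the cell type markers named and the promoter motifs were chosen after values were seen.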

Additional observations from a re-analysis of the deposited data

How the results depend on the processing

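Among alternatives that kept all arrays, Matn1 was the only one of the 10 adaptor genes called, in each that tested it. Testing only the brighter genes, those not below the median level, left 4 of the 10 to test, Matn1 not among them, and called 0 of the adaptors, 0 of them higher. Matn2 and Comp passed in no alternative that kept all arrays (lowest limma adjusted p = 0.0592 and 0.064). The difference turned round for Matn3 without day 15 replicate 2, for Thbs2 without day 0 replicate 2 and for Chad without day 0 replicate 1. With 1 array left out Matn3 ran from −0.30 to 0.034 log2, Thbs2 from −0.086 to 0.44 and Chad from −0.15 to 0.33. Over all genes, 342 were called (260 higher, 82 lower). With 1 array left out the counts ran from 174 to 282 genes, 145 to 219 higher and 29 to 63 lower. In these fits a day left with 1 array takes its spread from the pair of the other day. A test against a difference of 0.5 log2 called 156 (133 higher, 23 lower). With the replicate number as a block 628 genes were called (440 higher, 188 lower). Arrays with the same number deviated together across genes (r = 0.40), but with 2 pairs and no shared batch in the labels the numbers are not taken as pairs. Under the block Matn2 and Comp stayed above the threshold (limma adjusted p = 0.0754 and 0.064), while Col9a1 (0.0335), Prelp (0.0263) and Ddit3 (0.0413) were called. By replicate number, day 15 minus day 0 was 2.60 and 3.06 log2 for Matn1, 0.73 and 1.44 for Matn2, 0.71 and 0.97 for Comp and −0.0060 and 1.01 for Thbs3. Over the 13 alternatives Sox8 lost its call in 9, Sox6 in 6, Col2a1 in 5 and Col11a1 in 4. Besides arrays left out and the test against 0.5 log2, these were the deposited scaling (Sox6, limma adjusted p = 0.0502; Sox8, 0.056), median centring (Sox8, 0.0571), the trend and robust setting (Sox8, 0.0542) and quantile normalization over named probe sets (Sox6, 0.0625; Sox8, 0.0605; Col2a1, 0.0508). For dim genes such as Chad and Thbs4, signal over background limits what can be seen.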

Other observations

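Comp and Thbs4 are also known from tendon and ligament, and Matn2 from many connective tissues. Of 6 tendon and ligament markers 1 was called, Fmod, a small proteoglycan that cartilage also expresses, at 11.89 and 12.38 at day 15, against 7.94 and 9.06 at day 0 (limma adjusted p = 0.0163). Scx, the transcription factor of tendon progenitors, was at 10.74 and 10.62 at day 15, against 10.18 and 10.43 at day 0 (limma adjusted p = 0.505). Tnmd, tenomodulin, a membrane protein of tendon, was dim at 6.81 and 6.74 at day 15, against 6.93 and 6.61 at day 0. The differences of all 6 were above 0, with Mkx at 0.60 log2 (limma adjusted p = 0.238) and Tnmd at 0.0071 log2. Of 4 measured osteoblast markers 1 was called, Ifitm5 (limma adjusted p = 0.0138). Ifitm5 was at 10.03 and 10.76 at day 15, against 7.84 and 7.68 at day 0. The differences of all 4 were above 0, with Phex at 2.55 log2 and not called (limma adjusted p = 0.083). Hypertrophy markers held 5 called genes of 6 (Ibsp, Panx3, Col10a1, Pth1r and Mef2c), all higher. Over all genes 1.3% were called higher, which is the share to set beside these 3 marker lists. The lists were drawn up with earlier results of these data known, so their counts are a description and no test. Ihh, a signal of prehypertrophic chondrocytes, was at 8.67 and 8.97 at day 15, against 9.09 and 9.29 at day 0 and was not called (limma adjusted p = 0.558).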
